A study of Mus musculus with 11 samples.

Results

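Cytosolic heat shock genes were examined in whole cochleae of *Atf6*+/+ and *Atf6*-/- mice. The group is a list of names, drawn up with earlier results of these data known, and held 10 genes (*Hsf1*, *Hspa1a*, *Hspa1b*, *Hspa4*, *Hspa8*, *Hsp90aa1*, *Hsp90ab1*, *Hspb1*, *Hsph1* and *Dnajb1*) of the 18667 genes in the expression tables. The study sequenced RNA from 5 *Atf6*+/+ and 6 *Atf6*-/- cochleae, labelled WT and ATF6KO, with 1 library per individual cochlea. The mice were on a pure C57BL/6J background, and the study describes these transcriptomes as those of 2-month-old animals. The mutation is constitutive, with an early stop codon in *Atf6* exon 4, no treatment was given, and control and mutant animals alike carried the *Cdh23* ahl allele of C57BL/6J, which predisposes to age-related hearing loss. Expression is given as FPKM, sequenced fragments scaled by transcript length and library size, which allows levels to be compared between genes per length. No read counts were used, so the number of reads behind a level is not known, and errors are those between cochleae.

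HSF1 is the transcription factor that controls the heat shock response of the cytosol and nucleus. When unfolded proteins accumulate there, HSF1 forms trimers, binds heat shock elements built of inverted GAA units, and raises transcription of chaperone genes. ATF6 has a comparable place in the unfolded protein response of the endoplasmic reticulum (ER): it is cleaved from its membrane anchor under ER stress, and its cytosolic part activates genes for ER chaperones such as BiP. In the cochlea, the heat shock response is known from noise, heat and ototoxic drug exposure, and HSP70 has been linked to the survival of hair cells. The comparison asks whether genes of the cytosolic system differ in level where the ER regulator is lost.

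Genotypes were compared by limma on log2(FPKM + 0.1) in the 16169 genes whose mean reached 0.1 FPKM, and all 10 heat shock genes were among them. Genes were called where the unadjusted p was 0.05 or less and the log2 fold change exceeded 0.05 in size. By this rule 9.85% of the tested genes were called, 4.48% as higher and 5.37% as lower in *Atf6*-/- cochleae, and 0.068% passed a Benjamini-Hochberg adjusted p under 0.05. The 2 genotypes did not overlap for 1.25% of the genes. The split of 724 higher and 868 lower calls became 1389 and 439 when each library was rescaled to a common sum, and the median of all log2 fold changes went from -0.01 to 0.04. *Atf6* itself ranged from 8.25 to 10.6 FPKM in controls and from 3.83 to 4.59 FPKM in mutants, so every mutant library lay below every control. Markers of hair cells, supporting cells, stria vascularis and spiral ligament were called as higher in the mutants for 2 of 10, 1 of 10, 1 of 9 and 3 of 8 tested genes, and none as lower. Without *Atf6*+/+ library 3 these counts were 1, 2, 1 and 1, and with a score of bone marrow markers as a covariate 1 supporting cell gene, *Fgfr3*, was called. Over all tested genes, 524 were called as higher and 679 as lower without that library. With the covariate 333 were called as higher and 515 as lower. The stria vascularis markers summed to 373 FPKM in *Atf6*+/+ library 4, against 509 to 688 FPKM in the other controls and 494 to 767 FPKM in the mutants, and there *Kcne1* was at 0.1, *Bsnd* at 0 and *Dct* at 0.84 FPKM. Skeletal muscle markers summed to 41.2 FPKM in *Atf6*-/- library 3, against 1.95 to 6.21 FPKM in all other libraries. Markers of neutrophils, B cells and erythroid cells, which fill the bone marrow around the cochlea, were lower in the mutants for 6 of 10, 3 of 8 and 8 of 9 tested genes at the unadjusted p, and no marker of these lists was at 0 in every library. Without *Atf6*+/+ library 3 the counts were 1, 1 and 7. Neutrophil markers summed to between 283 and 3533 FPKM in *Atf6*+/+ and between 114 and 1308 FPKM in *Atf6*-/- libraries, B cell markers to between 102 and 193 against 107 and 238 FPKM, and erythroid markers to between 4839 and 46409 against 2875 and 9390 FPKM. In bulk tissue, fewer cells of a type and less RNA per cell cannot be told apart. Because many of these marrow markers were lower in the mutants, fits with their score as a covariate cannot fully separate marrow content from genotype.

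Of the 10 heat shock genes, *Hsf1* alone was called by the unadjusted rule, as higher in *Atf6*-/- cochleae, and none was called as lower. None passed the adjusted threshold, and for none were the 2 genotypes fully separate. The 10 log2 fold changes ranged from -0.16 to 0.13, with a median of -0.04, against -0.01 over all tested genes, and 3 were positive and 7 negative. A count of 1 in 10 is near the background of 9.85%. The SD between *Atf6*+/+ cochleae exceeded the difference of the genotype means for every member but *Hsf1*, and the interval of each difference is given below so that its limits can be read.

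**Figure D1:**
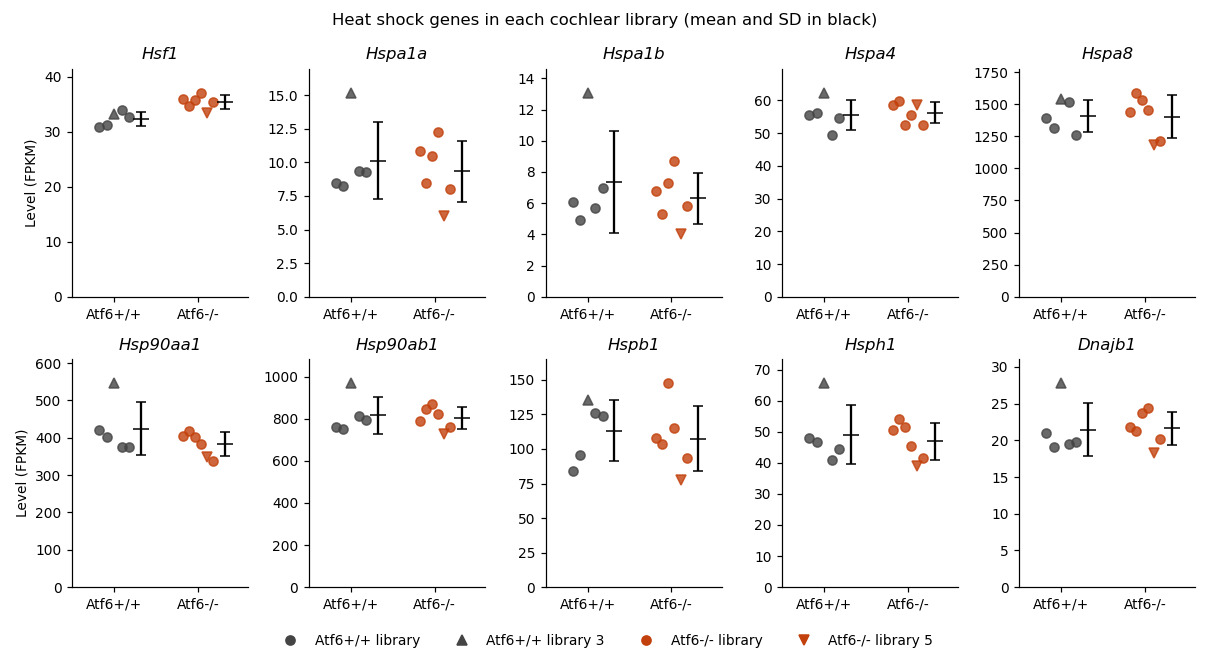
Level of each heat shock gene (FPKM, linear axes from 0) in the 5 *Atf6*+/+ (grey) and 6 *Atf6*-/- (orange) libraries, with the mean and SD in black at the right of each group. The mean of *Hsf1* was 32.3 FPKM in controls and 35.4 FPKM in mutants. The groups overlap for every gene, for *Hsf1* at 1 mutant library, and *Atf6*+/+ library 3 (triangle pointing up) stands above its group for several of them.

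The levels of the 10 genes covered a 207-fold range. *Hspa8*, the constitutive HSP70 that folds new proteins and uncoats clathrin vesicles, led with a mean of 1402 FPKM over the 11 libraries, followed by *Hsp90ab1*, the constitutive HSP90, at 809 FPKM and *Hsp90aa1*, the more stress-responsive HSP90, at 401 FPKM. *Hspb1*, a small heat shock protein, averaged 110.05 FPKM, *Hspa4* and *Hsph1*, both nucleotide exchange factors of the HSP110 family, 55.9 and 47.9 FPKM, *Hsf1* 34.0 FPKM and *Dnajb1*, a J-protein that delivers clients to HSP70, 21.5 FPKM. The stress-inducible HSP70 genes *Hspa1a* and *Hspa1b* were lowest, at 9.70 and 6.78 FPKM. Of the 9 neighbouring pairs in this order, 2 had overlapping ranges over the libraries. *Hspa4* exceeded *Hsph1* in 10 of 11 libraries, and *Hspa1a* exceeded *Hspa1b* in 11 of 11. *Hspa8* alone made up between 45.2% and 50.7% of the summed FPKM of the 10 genes, and the 2 HSP90 genes made up between 39.8% and 44.4%. Together the 10 genes took between 0.505% and 0.703% of a library's summed FPKM in *Atf6*+/+ and between 0.54% and 0.656% in *Atf6*-/- cochleae.

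*Hsf1* (NCBI gene 15499), the regulator, was the one member called. It measured 30.9, 31.1, 33.3, 33.8 and 32.6 FPKM in the 5 *Atf6*+/+ libraries. In the 6 *Atf6*-/- libraries its lowest value was 33.4, its median 35.6 and its highest 37.0 FPKM. Of the 6 mutant libraries, 5 lay above every control, and the remaining one, *Atf6*-/- library 5, lay within the control range, so the groups touched at 1 library. The means were 32.3 ± 1.31 (SD, n = 5) and 35.4 ± 1.24 FPKM (SD, n = 6), a difference of 9.37%. On the log2 scale *Hsf1* was higher by 0.13 (standard error 0.04, 95% interval 0.04 to 0.22, or 2.77% to 16.4% higher). The limma p was 0.00849 unadjusted and 0.400 after adjustment over all genes, and the exact two-sided permutation test gave p = 0.00866, where 0.00433 is the smallest value it can take. *Hsf1* was therefore past the unadjusted threshold and not past the adjusted one. The call was made under all 21 alternatives tried, with log2 fold changes from 0.11 to 0.19 and limma adjusted p from 0.206 to 0.906. The difference was 0.14 without *Atf6*+/+ library 3 (exact permutation p = 0.019) and 0.17 with the bone marrow marker score as a covariate.

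*Hspa1a* (NCBI gene 193740) and *Hspa1b* (NCBI gene 15511) encode the inducible HSP70 that accumulates after proteotoxic stress. They lie near each other on chromosome 17, and their coding sequences in GENCODE M21 are 99.5% identical, so a read can fit both. Of all 100-base windows of coding sequence, 70.7% in *Hspa1a* and 68.1% in *Hspa1b* also occurred in a transcript of another gene, chiefly the partner copy. RSEM divides such reads between copies, so the sum of the 2 genes was followed as well. The 250 bases before the *Hspa1a* start (RefSeq, GRCm38.p6, chr17:34972157-34972406, minus strand) are printed because the copies varied together and their promoters differ at only 3 of these bases (98.8% identical). Capitals mark the pattern GAANNTTC, 2 inverted GAA units of a heat shock element, at bases -104 to -97 from the start. The same pattern stands at the same distance in *Hspa1b* (chr17:34959324-34959353, minus strand), shown with its flanks.

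Hspa1a: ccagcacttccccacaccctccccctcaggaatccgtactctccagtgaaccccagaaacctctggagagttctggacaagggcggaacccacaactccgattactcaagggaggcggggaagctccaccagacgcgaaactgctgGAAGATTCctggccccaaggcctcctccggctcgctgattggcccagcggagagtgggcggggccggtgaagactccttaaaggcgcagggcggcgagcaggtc
Hspa1b: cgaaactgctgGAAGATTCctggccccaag

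In the 5 *Atf6*+/+ libraries *Hspa1a* measured 8.5, 8.25, 15.2, 9.36 and 9.32 FPKM. In *Atf6*-/- its lowest value was 6.02, its median 9.49 and its highest 12.2 FPKM. *Hspa1b* measured 6.05, 4.95, 13.1, 5.66 and 6.96 FPKM in *Atf6*+/+, and 4.03, 6.30 and 8.68 FPKM as the lowest, median and highest in *Atf6*-/-. Both genes were highest in *Atf6*+/+ library 3 and lowest in *Atf6*-/- library 5, and the mutant range covered all of the other controls. The summed level was 17.5 ± 6.12 FPKM in controls (SD, n = 5) and 15.7 ± 3.86 FPKM in mutants (SD, n = 6). Its log2 fold change was -0.14 (95% interval -0.59 to 0.32), with an exact two-sided permutation p of 0.593. The data therefore left room for a mean level between 33.8% lower and 24.8% higher in the mutants. Adjusted p from limma was 0.866 for *Hspa1a* (log2 fold change -0.11) and 0.839 for *Hspa1b* (log2 fold change -0.16). Library 3 decided the sign: without it the log2 difference of the sum was 0.05 (exact permutation p = 0.781), and the control mean was 14.8 ± 1.27 FPKM (SD, n = 4).

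The inducible HSP70 genes remained far below their constitutive relative in every cochlea. The sum of *Hspa1a* and *Hspa1b* equalled 1.05%, 1.01%, 1.83%, 0.988% and 1.29% of *Hspa8* in *Atf6*+/+ and between 0.851% and 1.44% in *Atf6*-/- libraries. This ratio did not separate the genotypes (exact permutation p = 0.541, 0.615 after adjustment over 3 ratios chosen after the values were seen). *Hspa1b* stood at 60.0% to 86.1% of *Hspa1a* in *Atf6*+/+ and at 62.5% to 72.6% in *Atf6*-/- libraries (exact permutation p = 0.615), with the highest ratio in *Atf6*+/+ library 3.

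*Hspa8* (NCBI gene 15481), the constitutive HSP70, measured 1391, 1311, 1539, 1520 and 1259 FPKM in *Atf6*+/+, and 1181, 1445 and 1586 FPKM as the lowest, median and highest in *Atf6*-/-. The mutant values enclosed the control values on both sides. The log2 difference was -0.01 (95% interval -0.23 to 0.21, limma adjusted p = 0.986), so a change of 14.8% down or 16.0% up lay within the error. In coding sequence, 78.2% of the 100-base windows of *Hspa8* also occurred in transcripts of 7 other annotated genes, and its level may hold reads of these copies.

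*Hspa4* (NCBI gene 15525) and *Hsph1* (NCBI gene 15505) release ADP from HSP70 and thereby reset its cycle. *Hspa4* was the steadiest chaperone of the set, with 55.5, 56.1, 62.2, 49.3 and 54.6 FPKM in *Atf6*+/+ and a lowest, median and highest value of 52.3, 56.9 and 59.7 FPKM in *Atf6*-/- libraries. Its log2 difference of 0.02 had the narrowest interval among the chaperones, from -0.11 to 0.15 (limma adjusted p = 0.940), or 7.52% lower to 10.8% higher. *Hsph1* measured 48.1, 46.7, 65.5, 40.8 and 44.4 FPKM in *Atf6*+/+, and 39.0, 47.9 and 54.1 FPKM as the lowest, median and highest in *Atf6*-/-. Its controls were wider than its mutants because *Atf6*+/+ library 3 lay above all other libraries. The log2 difference of *Hsph1* was -0.05 (95% interval -0.31 to 0.20, limma adjusted p = 0.900), and 0.06 without that library.

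Both cytosolic HSP90 genes act late in folding, on kinases, steroid receptors and HSF1 itself. *Hsp90ab1* (NCBI gene 15516) measured 759, 750, 968, 815 and 792 FPKM in *Atf6*+/+ and 727, 808 and 871 FPKM as the lowest, median and highest in *Atf6*-/- libraries, with a log2 difference of -0.02 (95% interval -0.20 to 0.16, limma adjusted p = 0.950). *Hsp90aa1* (NCBI gene 15519) measured 420, 403, 545, 376 and 376 FPKM in *Atf6*+/+, and 338, 393 and 418 FPKM as the lowest, median and highest in *Atf6*-/-. All 6 mutant libraries were below the control mean of 424 FPKM, although 4 of the 6 lay within the control range. Its log2 difference of -0.14 was the most negative after that of *Hspa1b* and did not pass (95% interval -0.35 to 0.08, limma p = 0.184 unadjusted and 0.633 adjusted, exact permutation p = 0.242). Without *Atf6*+/+ library 3 it was -0.04. *Hsp90aa1* was 51.8 ± 4.7% of *Hsp90ab1* in *Atf6*+/+ (SD, n = 5) and 47.6 ± 2.38% in *Atf6*-/- cochleae (SD, n = 6), a ratio that did not differ by an exact permutation test (p = 0.0996, 0.299 after adjustment over 3 ratios). In *Hsp90aa1*, 69.6% of the coding windows were shared with other annotated transcripts, and in *Hsp90ab1* none was.

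*Dnajb1* (NCBI gene 81489), the HSP40 partner of HSP70 and an established HSF1 target, measured 21.01, 19.2, 27.8, 19.5 and 19.7 FPKM in *Atf6*+/+, and 18.3, 21.5 and 24.4 FPKM as the lowest, median and highest in *Atf6*-/-. The other 4 controls lay close together and *Atf6*+/+ library 3 lay above all other cochleae. The log2 difference was 0.02 (95% interval -0.20 to 0.24, limma adjusted p = 0.961) and 0.12 without that library (exact permutation p = 0.2). *Hspb1* (NCBI gene 15507), which holds unfolded proteins and binds actin filaments, varied widely within each genotype. Its values were 84.2, 95.7, 136, 126 and 124 FPKM in *Atf6*+/+, and 77.6, 106 and 147 FPKM as the lowest, median and highest in *Atf6*-/-, with a coefficient of variation of 19.5% and 21.9% in the respective genotypes. The log2 difference of *Hspb1* was -0.08 (95% interval -0.43 to 0.27, limma adjusted p = 0.892). A pseudogene, *Hsp25-ps1*, shared 85.8% of the coding windows of *Hspb1*.

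**Figure D2:**
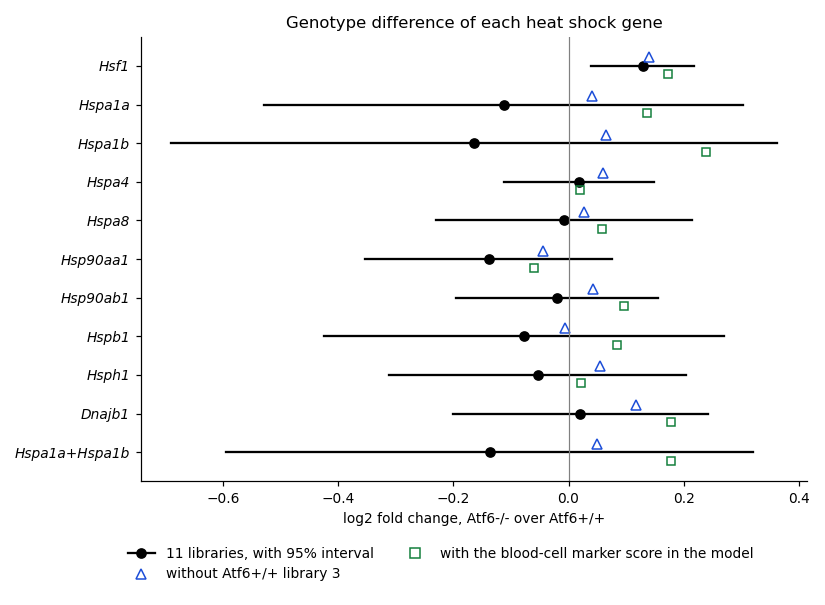
Log2 fold change of each heat shock gene and of the *Hspa1a* and *Hspa1b* sum, *Atf6*-/- over *Atf6*+/+, with its 95% limma interval (black). Blue triangles leave out *Atf6*+/+ library 3 and green squares add the bone marrow marker score to the model. The interval of *Hsf1* alone excludes 0, and *Hspa1a*, *Hspa1b*, their sum, *Hspa8*, *Hsp90ab1* and *Hsph1* change sign under both alternatives.

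Promoter sequences were matched for 6 of the 10 members, *Hspa1a*, *Hspa1b*, *Hspa4*, *Hspb1*, *Hsph1* and *Dnajb1*. Each window runs from 250 bases before to 50 bases after a start, and 2 starts were listed for *Hsph1*. Both strands were searched for GAANNTTC and for TTCNNGAA, the 2 ways in which 2 GAA units can face each other, and each of these patterns reads the same on both strands. GAANNTTC was found in 7.86% and TTCNNGAA in 8.52% of all 32851 promoters, and 15.1% held either. Among the 6 members, *Hspa1a*, *Hspa1b*, *Hspb1* and *Hsph1* held at least 1 of them. *Hspb1* held GAANNTTC at -117 to -110 and again at -97 to -90. A longer element of 3 units, in which GAANNTTC is followed after NN by a further GAA, was found in 0.603% of all promoters and, among the members, in *Hsph1* alone, on the opposite strand just after its start, where both shorter patterns overlap it. *Hsph1* also held TTCNNGAA before its start and apart from that element, at -33 to -26 from one listed start or -54 to -47 from the other. *Dnajb1* and *Hspa4* held none of these letters in this window. The stretches are shown to let the spacing of the units be compared, with the pattern in capitals, first for *Hspb1* (chr5:135887791-135887820 and chr5:135887811-135887840, plus strand) and then for *Hsph1* before its start (chr5:149636351-149636380, minus strand) and after it (chr5:149636280-149636308, minus strand).

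Hspb1 distal: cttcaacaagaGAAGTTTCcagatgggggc
Hspb1 proximal: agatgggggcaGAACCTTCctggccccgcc
Hsph1 before the start: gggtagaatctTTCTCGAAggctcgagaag
Hsph1 after the start: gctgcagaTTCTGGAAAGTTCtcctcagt

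The ER stress response element, CCAAT and CCACG with 9 bases between them, to which ATF6 is known to bind with NF-Y, was found in 0.119% of all promoters and in none of the 6 members with a sequence. For comparison, it was found in *Hspa5*, *Hsp90b1* and *Dnajc3*, 3 of the 8 ER chaperone genes with a promoter. A match of letters is a description of the window and was not tested as a binding site.

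Variation between cochleae was shared by most of the members. *Atf6*+/+ library 3 held the highest control value for 9 of the 10 genes and the highest of all 11 libraries for 7. *Atf6*-/- library 5 held the lowest mutant value for 8 genes and the lowest of all libraries for 7. In library 3, *Hspa1b* stood 2.21 times, *Hspa1a* 1.71 times, *Hsph1* 1.46 times, *Dnajb1* 1.40 times and *Hsp90aa1* 1.39 times above the mean of the other controls, whereas *Hsf1* stood only 1.04 times above it. The median deviation of the 10 genes from their means was 0.35 on the log2 scale in that library, and between -0.12 and -0.04 in the other controls. In the mutants it ranged from -0.23 in library 5 and -0.17 in library 6 to 0.13 in library 3. *Atf6*+/+ library 3 also had the highest bone marrow marker score, 1.15, against -0.84 to 0.43 in the other controls and -2.17 to -0.48 in the mutants, and its immediate early gene score of 0.105 lay within the control range of -0.27 to 0.18. With that marrow score as a covariate, 9 of the 10 fold changes were positive (range -0.06 to 0.24, median 0.09) and *Hsf1* stayed the 1 gene called. Without library 3, 8 were positive (range -0.04 to 0.14, median 0.05), again with *Hsf1* as the 1 gene called. The marrow score itself was lower in the mutants (median -1.16, against -0.30 in the controls), so a fit with it cannot fully separate marrow content from genotype. Whether the marrow content acted on the heat shock genes was not tested.

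**Figure D3:**
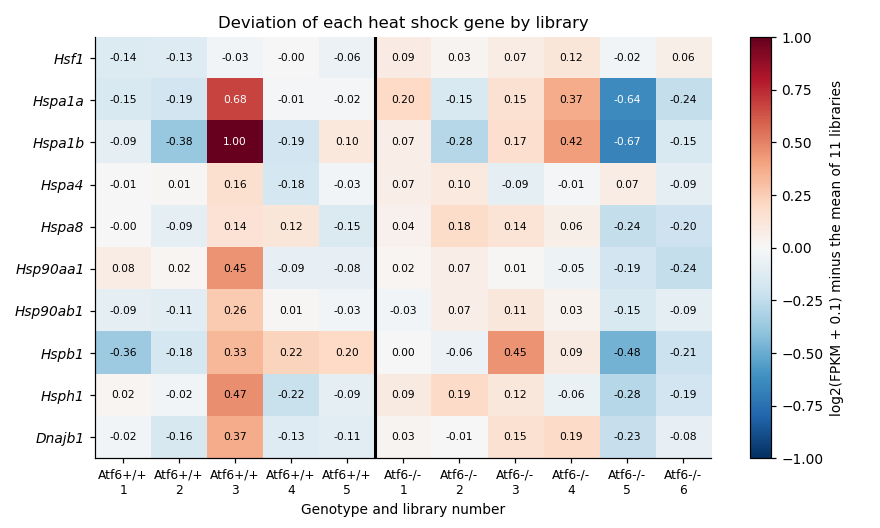
Deviation of each heat shock gene from its mean over 11 libraries, in log2(FPKM + 0.1), by library, with *Atf6*+/+ left and *Atf6*-/- right of the line. Column 3 of *Atf6*+/+ is red for 9 of 10 genes, up to 1.004 for *Hspa1b*, and columns 5 and 6 of *Atf6*-/- are mostly blue, down to -0.67 for *Hspa1b*.

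Each of the other 8 genes was set against the inducible HSP70 genes, and *Dnajb1* had the highest r with them. Over 11 libraries, log2 levels of *Dnajb1* and of the *Hspa1a* and *Hspa1b* sum had a Pearson r of 0.922 and a Spearman rho of 0.836 (permutation p = 0.00096 and 0.017 after adjustment over 8 genes). Without the 2 cochleae farthest from the median of the sum, *Atf6*+/+ library 3 and *Atf6*-/- library 5, r was 0.801. *Hsp90ab1* had r = 0.843, rho = 0.745 and r = 0.499 without those 2 (adjusted permutation p = 0.00648 and 0.0299). *Hspb1* had a lower r of 0.740, a higher rho of 0.791 and r = 0.567 without them (adjusted permutation p = 0.0203 and 0.0221). The relations of *Hsp90aa1* (r = 0.724, rho = 0.327) and *Hsph1* (r = 0.725, rho = 0.455) rested on those 2 cochleae, since r fell to 0.02 and 0.09 without them (adjusted permutation p of r 0.0342 and 0.0288, of rho 0.374 and 0.262). *Hspa8* had r = 0.589 and rho = 0.518, and *Hspa4* r = 0.224 and rho = -0.127, with adjusted permutation p of at least 0.0728, and without the 2 cochleae r was 0.285 and -0.0175. All of these values share the scaling of their library.

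For *Hsf1*, the r with the inducible HSP70 sum was 0.295 and the rho 0.391 over the 11 libraries (adjusted permutation p = 0.441 and 0.313), and r was 0.642 without the same 2 cochleae. Within the 6 *Atf6*-/- libraries r was 0.971 and rho 0.943 (exact permutation p of r 0.00417, 0.0167 after adjustment over 8 genes), next to r = 0.958 for *Dnajb1* in the same 6 cochleae. The 5 controls are fewer than the 6 samples required here for a correlation. Within a single genotype the relation of *Hsf1* with the sum was therefore read in the mutants alone, and it was not compared between genotypes. In *Atf6*+/+ library 3, which had the highest *Hspa1* sum at 28.2 FPKM, *Hsf1* stood at 33.3 FPKM, within the control range.

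**Figure D4:**
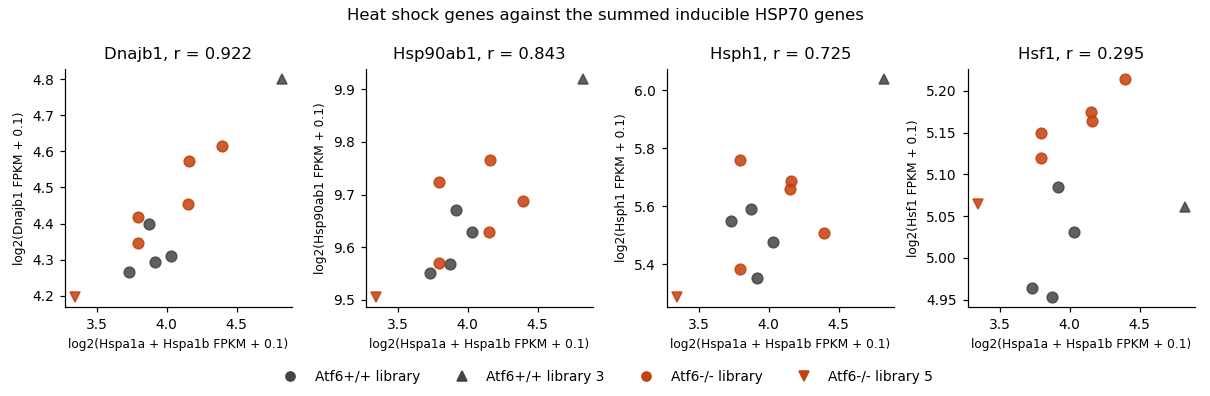
Log2 level of *Dnajb1*, *Hsp90ab1*, *Hsph1* and *Hsf1* (log2(FPKM + 0.1)) against that of the *Hspa1a* and *Hspa1b* sum in 11 libraries, grey for *Atf6*+/+ and orange for *Atf6*-/-. The r of *Dnajb1* with the sum is 0.922 over both genotypes together, and *Atf6*+/+ library 3 is highest in both. For *Hsf1* 5 of the 6 mutants lie above every control and the pooled r is 0.295.

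Genes were also ranked by how closely they followed the *Hspa1a* and *Hspa1b* sum over the 11 libraries, after each genotype was centred on its mean. Among the 13609 genes averaging 1 FPKM or more, *Dnajb1* ranked 2 with r = 0.951, and 0.906 without *Atf6*+/+ library 3. *Hsp90ab1* ranked 69 (r = 0.844, and 0.674 without that library), *Hsf1* 323 (0.741 and 0.786), *Hspb1* 347 (0.734 and 0.727) and *Hspa8* 984 (0.594 and 0.542). Library 3 weighed more on *Hsp90aa1*, which ranked 388 (0.722 and 0.378), *Hsph1*, which ranked 405 (0.719 and 0.427), and *Hspa4*, which ranked 4358 (0.247 and -0.322). Outside the group, the genes most like the sum were *Zfp560* (r = 0.955), which encodes a zinc finger protein, *Ing3* (0.943), a subunit of a histone acetyltransferase complex, the interferon-inducible genes *Ifi203* (0.930) and *Ifi207* (0.925), and *Mpeg1* (0.925), a pore-forming protein of macrophages. These correlations are a description, and genes picked as the highest of so many carry no p.

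The other genes of the cytosolic folding system were read from 7 lists with 74 genes, of which 71 were tested. By the unadjusted rule 1 was higher and 4 were lower in *Atf6*-/- cochleae, 7.04% against the 9.85% of all genes, none passed the adjusted threshold, and the median log2 fold change was -0.03. All 4 lower calls, *Hspa14*, *Dnaja1*, *Hspb3* and *Cct8*, ended when the libraries were rescaled to a common sum (log2 differences -0.07, -0.11, -0.51 and -0.06), and likewise with the bone marrow score as a covariate (-0.14, -0.11, -0.33 and -0.14). Without *Atf6*+/+ library 3, *Hspa14* was the 1 gene of the 7 lists called. Among the HSF family and HSF1 regulators, 0 of 6 were called, with *Hsf4*, the heat shock factor of the lens, at a log2 difference of -0.13 (limma adjusted p = 0.602), *Hikeshi*, which carries HSP70 into the nucleus, at 0.08 and *Ier5*, an activator of HSF1, at 0.10. In the other HSP70 and HSP110 genes, *Hspa14*, a ribosome-associated HSP70, was the 1 of 6 called. It measured 16.0, 16.8, 16.7, 16.1 and 16.2 FPKM in *Atf6*+/+ and between 13.7 and 16.02 FPKM in *Atf6*-/- libraries, with a single mutant value inside the control range. Its log2 difference was -0.12 (limma adjusted p = 0.462, exact permutation p = 0.00866). *Hspa4l*, a relative of *Hspa4*, was at a log2 difference of -0.02, and 0.06 without *Atf6*+/+ library 3. *Hspa2*, a further HSP70, had a log2 difference of 0.38 (exact permutation p = 0.108), which was 0.22 without that library and -0.03 once the bone marrow score was a covariate. *Ier5* was at 0.06 without the same library.

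Of 15 other J-protein genes, *Dnaja1*, another HSP70 partner, was called as lower (63.2 ± 7.14 FPKM, SD, n = 5, against 56.3 ± 4.19 FPKM, SD, n = 6; log2 difference -0.16, limma adjusted p = 0.505, exact permutation p = 0.0779). Its highest value, 75.7 FPKM, was again in *Atf6*+/+ library 3, and without that library the difference was -0.10 and no longer called. *Dnajc2* (log2 difference -0.17) and *Dnajc8* (-0.10) came next by p and were not called. Of 7 tested small heat shock genes, *Hspb3*, a muscle member, was lower at 1.42 against 0.94 FPKM on average (log2 difference -0.54, limma adjusted p = 0.475, exact permutation p = 0.0563). Without *Atf6*+/+ library 3 the *Hspb3* difference was -0.41 and not called. *Hspb11* (log2 difference 0.14, and 0.07 without that library) and *Hspb6* (-0.05, and -0.12 without it) were not called. *Cryab*, the most abundant of them, averaged 598 ± 25.7 FPKM (SD, n = 5) and 596 ± 44.3 FPKM (SD, n = 6), a log2 difference of -0.01.

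Of 15 HSP90 cochaperone genes, *Fkbp5*, an immunophilin induced by glucocorticoids, was called as higher. It measured 11.4, 18.6, 6.35, 7.0 and 14.3 FPKM in *Atf6*+/+ and between 13.6 and 21.6 FPKM in *Atf6*-/- libraries, so the groups overlapped. Its log2 difference of 0.67 (limma adjusted p = 0.452, exact permutation p = 0.0649) was 0.03 once the bone marrow score was a covariate. The lowest *Fkbp5* values were in the 2 controls with the highest scores. Score and genotype cannot be told apart here, and whether marrow content bears on *Fkbp5* was not tested. Without *Atf6*+/+ library 3 the *Fkbp5* difference was 0.48 and not called. *Cacybp* (-0.15, and -0.08 without that library) and *Ptges3* (-0.08) were not called. *Stip1*, which links HSP70 to HSP90 and is a known HSF1 target, averaged 155 ± 16.4 and 160 ± 16.2 FPKM (SD, n = 5 and 6), a log2 difference of 0.04, and 0.10 without library 3. None of 8 exchange factors and cofactors of HSP70 was called, with *St13* at a log2 difference of 0.12 (exact permutation p = 0.108), *Bag6* at 0.07, *Bag1* at -0.08 and *Bag3*, an HSF1-induced autophagy adaptor, at 0.06. In the TRiC chaperonin and prefoldin, which fold actin and tubulin, *Cct8* was the 1 of 14 genes called (71.5 ± 2.02 FPKM, SD, n = 5, against 65.9 ± 3.93 FPKM, SD, n = 6; log2 difference -0.12, limma adjusted p = 0.456, exact permutation p = 0.0216). The *Cct8* difference was -0.11 and not called when that library was left out. *Tcp1* (-0.10) and *Pfdn4* (-0.16) came next by p and were not called. All 14 log2 differences were negative, from -0.16 to -0.03, where 54.7% of all tested genes were negative. After rescaling to a common sum, which moved the median of all genes to 0.04, 8 of the 14 were negative. Under each of the other alternatives 13 or 14 were negative.

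Organelle counterparts were read beside the cytosolic genes. Of 11 ER genes, 3 were called as higher and 1 as lower at the unadjusted p, where the shares over all genes were 4.48% and 5.37%. *Hyou1*, the ER relative of *Hsph1*, was at 26.4 to 33.4 FPKM in controls and 32.2 to 35.1 FPKM in mutants, a log2 difference of 0.22 (limma adjusted p = 0.350). *Dnajb9*, an ER J-protein, was higher by 0.24 (adjusted p = 0.374 from limma) and *Hspa13* by 0.23 (adjusted p = 0.399 from limma). *Hsp90b1*, the ER relative of the HSP90 pair and an ATF6 target, was lower by 0.20 on the log2 scale (173.6 ± 21.7 against 150.5 ± 13.6 FPKM, SD, n = 5 and 6, limma adjusted p = 0.491). Leaving out *Atf6*+/+ library 3 gave *Hsp90b1* a log2 difference of -0.14, which was not called. *Hspa5*, the ER relative of *Hspa8* that encodes BiP, averaged 132 ± 17.8 and 128 ± 12.8 FPKM (SD, n = 5 and 6), a log2 difference of -0.05 (95% interval -0.24 to 0.15), which was 0.03 without that library. Of 7 mitochondrial genes, *Hspe1* was the 1 called, as lower (log2 difference -0.23, limma adjusted p = 0.496), *Hspd1* was at -0.13, *Dnaja3* at 0.04 and *Hspa9*, the mitochondrial HSP70, at -0.02. Without the same library *Hspe1* was at -0.17 and not called, and *Hspd1* was at -0.08. Among 22 immediate early genes, which mark recent handling and stimulation, *Ier3* was the 1 gene called, as lower (log2 difference -0.28, limma adjusted p = 0.475). For both lists the share over all genes called in either direction was 9.85%. Of the immediate early genes, 1 was called as higher and 1 as lower without library 3, and 4 as higher and 1 as lower with the marrow covariate. Over all 16169 tested genes, 524 were higher and 679 lower without library 3. With the marrow covariate 333 were higher and 515 lower. *Btg2* was at a log2 difference of -0.20 and *Klf6* at -0.10, neither called, and they were at -0.12 and -0.06 without library 3. *Fos* averaged 3.16 ± 0.86 and 2.85 ± 0.62 FPKM (SD, n = 5 and 6), and *Egr1* 9.53 ± 2.86 and 9.16 ± 0.99 FPKM (SD, n = 5 and 6).

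Among these list genes, the calls of *Hyou1*, *Hspa13* and *Dnajb9* held with any 1 of the 11 libraries left out (log2 differences from 0.17 to 0.29), and of these 3 genes *Hyou1* was also called with the marrow covariate (0.26). With that covariate *Hspa13* was at 0.21 and *Dnajb9* at 0.08, neither called. Each of the lower calls was lost with at least 2 of the 11 omissions, with a negative log2 difference throughout. *Hsp90b1* and *Hspe1* were also not called after rescaling to a common sum (-0.14 and -0.18) or with the marrow covariate (-0.20 and -0.08). *Hspa14* was no longer called without *Atf6*+/+ library 2 or *Atf6*-/- library 5 (-0.14 to -0.10 over the 11 omissions). *Cct8* lost its call without *Atf6*+/+ library 3 or *Atf6*-/- libraries 5 or 6 (-0.14 to -0.10), *Dnaja1* without *Atf6*+/+ libraries 1 or 3 or *Atf6*-/- libraries 4, 5 or 6 (-0.19 to -0.10), and *Hspb3* without *Atf6*+/+ libraries 1, 3 or 4 or *Atf6*-/- libraries 3 or 6 (-0.69 to -0.41). *Fkbp5* lost its call without *Atf6*+/+ libraries 3 or 4 (0.48 to 0.87). *Hsp90b1* stayed called in 5 of 11 omissions (-0.27 to -0.14), losing the call without *Atf6*+/+ libraries 1, 3 or 5 or *Atf6*-/- libraries 4, 5 or 6. *Hspe1* stayed called in 4 of 11 (-0.30 to -0.17), without *Atf6*+/+ libraries 1 or 2 or *Atf6*-/- libraries 2 or 3. *Ier3* stayed called in 6 of 11 (-0.38 to -0.19), losing the call without *Atf6*+/+ libraries 2, 4 or 5 or *Atf6*-/- libraries 1 or 4.

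**Figure D5:**
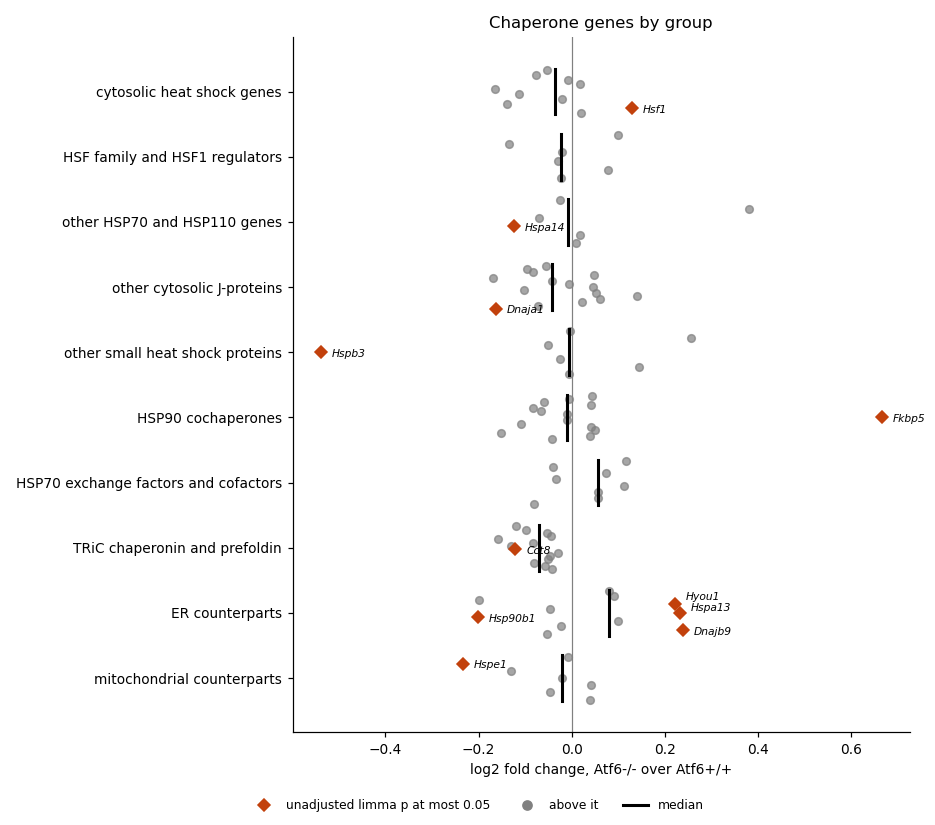
Log2 fold change, *Atf6*-/- over *Atf6*+/+, of every tested gene in the cytosolic heat shock group and 9 chaperone lists (1 point per gene, spread vertically for legibility, black line at the median). Orange diamonds are genes at a limma unadjusted p of at most 0.05, which are *Hsf1* in the first group, 1 gene higher and 4 lower in the 7 cytosolic lists, 3 higher and 1 lower among the ER counterparts, and *Hspe1*, lower, among the mitochondrial counterparts.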

How the data were processed

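Whole cochleae, 5 *Atf6*+/+ and 6 *Atf6*-/-, were profiled by stranded mRNA sequencing (paired-end 100 bp, BGI), and groups and replicate numbers come from the sample titles. The authors aligned reads to GRCm39 with HISAT2 2.0.4 and deposited FPKM from RSEM, given as version 1.2.12 in the submitters' processing notes and as another version in the methods, and they used DESeq2 1.4.5. The methods give 1 nominal depth for all samples, and the reads of each library were not used here, so the precision of a value rests on the spread of cochleae. Here the 2 tables were joined by NCBI gene identifier. limma 3.58.1 (R 4.3.3, mean-variance trend, two-sided, Benjamini-Hochberg) was run on log2(FPKM + 0.1), so fold changes of low genes are understated, and checked on simulated data. Exact permutation tests used SciPy 1.17.1. The members and lists were chosen with earlier results of these data known. Genes named are the members, their sum, *Atf6*, 9 preset genes and the 5 genes most like the sum. From each companion list they are the 3 genes of smallest limma p (mean of at least 1 FPKM) and any gene past the adjusted threshold. Other genes are cited as markers or for motif matches. Promoters were taken from RefSeq (GRCm38.p6) and transcripts from GENCODE M21 of the same assembly, since GRCm39 annotation was not used here. Alternatives were other pseudocounts (1, 0.01), filters and scalings, a replicate block, 2 covariates, robust variance and leaving out each library. Replicates are separate cochleae; that each came from a different animal is not given in the sources used here, so p-values measure the spread between these cochleae.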

Additional observations from a re-analysis of the deposited data

Results flagged for a closer look

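In *Atf6*+/+ library 3, 4 single genes and 1 sum stood apart from the other controls by Dixon's criterion, under which the gap to the nearest value, as a share of the range of the group, exceeds a critical value that chance passes in about 1 of 20 groups. *Hspa1a* was at 15.16 FPKM there (gap 0.839 of the range), *Hspa1b* at 13.06 FPKM (0.752) and their sum at 28.22 FPKM (0.795). The J-protein gene *Dnajb1* was at 27.75 FPKM (0.784) and the HSP90 gene *Hsp90aa1* at 545.47 FPKM (0.738). These values come from 1 cochlea and share its scaling, so they are not separate events. No heat shock gene was singled out in this way among the 6 *Atf6*-/- libraries.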

How the results depend on the processing

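*Hsf1* stayed on its side of the unadjusted threshold under each of 21 alternatives, and no other member reached it under any of them. Of 210 combinations of member and alternative, 178 kept their direction and call and 32 changed sign, none of these in *Hsf1* or *Hsp90aa1* and each in a gene that was not called. The 11 genes past the adjusted threshold over the whole table became 4 with the replicate block, which also drops *Atf6*-/- library 6 (9 without that library and no block), and 6 with the bone marrow score, and the 1592 at the unadjusted p became 848 with that score. The replicate block used the numbers 1 to 5 that the titles give both genotypes, so *Atf6*-/- library 6 had no partner and was left out, and the members' log2 differences under the block equal those without that library. Same-numbered libraries had correlations of their deviations between -0.21 and 0.119. Such correlations cannot exclude that same-numbered cochleae shared a litter or handling, and the titles do not give a pairing. Under the replicate block *Hsf1* had a log2 difference of 0.13 (limma adjusted p = 0.734), and *Hspa8* was at 0.032 with or without the block once library 6 was left out. Of the companion genes, *Hspa14*, *Dnaja1*, *Hspb3*, *Cct8*, *Hsp90b1*, *Hspe1* and *Ier3* were not called under the block, and of these *Hspa14* and *Ier3* were called when library 6 alone was left out. *Dnaja1* was also not called after median-of-ratios scaling, nor were *Dnaja1*, *Hsp90b1* and *Hspe1* with the immediate early gene score. With the bone marrow score, the *Hspa1* sum turned to 0.18, *Hspa1a* to 0.14, *Hspa1b* to 0.24, *Hspa8* to 0.058, *Hsp90ab1* to 0.097, *Hspb1* to 0.084 and *Hsph1* to 0.021. Rescaling to a common sum (TPM) turned *Hspa8* to 0.049, *Hsp90ab1* to 0.037 and *Hsph1* to 0.0031. Median-of-ratios scaling turned *Hspa8* to 0.0040. The immediate early gene score turned *Hspa8* to 0.0086, *Hsp90ab1* to 0.0053 and *Hspb1* to 0.015. Leaving out 1 library at a time, the log2 difference ranged from -0.23 to 0.050 for the *Hspa1* sum, from -0.20 to 0.041 for *Hspa1a*, -0.28 to 0.064 for *Hspa1b*, -0.024 to 0.060 for *Hspa4*, -0.046 to 0.039 for *Hspa8*, -0.050 to 0.042 for *Hsp90ab1*, -0.18 to 0.011 for *Hspb1*, -0.12 to 0.055 for *Hsph1* and -0.016 to 0.12 for *Dnajb1*. The upper ends came from leaving out *Atf6*+/+ library 3, except for *Hspa8* and *Hspb1*, where they came from *Atf6*-/- library 5. The cause of the other turns was not tested. The median log2 difference of the members ranged from -0.06 to 0.09 over all alternatives. Between single libraries of a genotype, the members' median deviation had an SD of 0.168, which is not the error of a difference between genotypes. The pseudocounts, filters and robust variance changed no direction. Without read counts, the counting error of the low genes *Hspa1a* and *Hspa1b* is unknown.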
